A study of Mus musculus with 8 samples.

Results

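Bhlhe40 and Bhlhe41 encode closely related basic helix-loop-helix repressors, also called DEC1 and DEC2. Their accessible chromatin was examined in mouse regulatory T (Treg) cells that lacked folliculin. The members are the ATAC-seq peaks whose nearest protein-coding gene, by distance to the gene span and within 50 kb, is Bhlhe40 or Bhlhe41. There were 16 such peaks among the 57199 of the deposited table, 10 of them at Bhlhe40 and 6 at Bhlhe41. Both genes lie on chromosome 6 in mm10, Bhlhe40 from 108660629 to 108666925 and Bhlhe41 from 145858243 to 145865420. The loci were chosen by the Flcn KO against WT difference at Bhlhe40 peaks, which had already been seen in these same libraries. Differences between the genotypes at the members are therefore given as measurements with their errors and without p-values. Whether a member passed the threshold of the test over the whole table is given as description and is not separate support.

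BHLHE40 and BHLHE41 bind E-box sequences of the form CACGTG and repress transcription. In many tissues they dampen the circadian clock by opposing its activators CLOCK and BMAL1 at shared sites. In mouse CD4 T cells, BHLHE40 is known to repress the gene of interleukin-10 and to support inflammatory cytokine production, and BHLHE41 is known from type 2 helper T cells. Folliculin, the product of Flcn, holds TFEB and TFE3 in the cytoplasm, and these transcription factors also read E-boxes that contain CACGTG.

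Flcn KO libraries came from Treg cells of Foxp3CreFlcnfl/fl donors, in which Cre recombinase driven by Foxp3 deletes the floxed Flcn gene in Foxp3-expressing cells. WT libraries came from Treg cells of wild-type donors. Cells of both groups were sorted from spleens of mixed bone marrow chimeras as CD4+, CD45.2+, CD45.1- cells expressing a Foxp3-driven yellow fluorescent protein, so cells carrying CD45.1 were left out. About 50000 cells were used per library, each group had 4 libraries described as biological replicates, and the age of the mice is not stated in the labels. ATAC-seq uses a transposase to insert adapters into open DNA, and values are CPM, counts relative to the library size after TMM scaling. In sorted populations, a change in the share of cells with an open site and a change in openness per cell cannot be told apart.

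Total counts ranged from 2723344 to 5111728 in Flcn KO libraries and from 3986331 to 4914976 in WT libraries, and the group means did not differ detectably (p = 0.486 in an exact two-sided permutation test that can reach 0.0286 at best). Across the table, edgeR's quasi-likelihood test with Benjamini-Hochberg adjustment called 644 of 47859 tested peaks higher in Flcn KO (1.35%) and 489 lower (1.02%), at an adjusted p below 0.05. The balance depended on single libraries, with 863 higher and 934 lower without Flcn KO replicate 1, and 448 higher and 217 lower without WT replicate 2. The most accessible Flcn peak had 13.6 ± 2.83 CPM in Flcn KO and 16.3 ± 3.76 CPM in WT (SD, n = 4 each), and which exons are deleted is not stated in the labels, so this peak does not check the genotype. The most accessible Foxp3 peak had 31.4 ± 5.49 CPM in Flcn KO and 29.2 ± 1.33 CPM in WT. All 5 Treg marker genes examined (Foxp3, Il2ra, Ikzf2, Ctla4 and Cd4) had peaks, which summed to 1164 to 1374 CPM in Flcn KO and 1129 to 1239 CPM in WT. Of their 67 tested peaks, 3 were called higher, 1 lower and 63 not called. The higher ones lie near Ikzf2, the gene of the transcription factor Helios (log2 fold changes 1.10, SE 0.27, and 0.63, SE 0.16), and near Il2ra, and the lower one near the inhibitory receptor gene Ctla4 (-1.24, SE 0.29). The Ctla4 call ended without Flcn KO replicate 4 or WT replicate 2, and the Ikzf2 calls without Flcn KO replicate 3 or 4, WT replicate 2 or, for the first, WT replicate 3 and, for the second, WT replicate 4. Among myeloid markers, Lyz2, Csf1r and Cd68 had no assigned peak, and the list summed to 36.6 to 44.2 CPM in Flcn KO and 36.6 to 51.9 CPM in WT. Its most changed leading peak, near Itgam, had 2.96 ± 0.200 CPM in Flcn KO and 3.75 ± 0.633 CPM in WT. The CD8 T and NK cell list summed to 271 to 376 CPM in Flcn KO and 263 to 308 CPM in WT, with 1 of its 16 tested peaks called higher and 1 lower, both assigned to Klrb1c, an NK receptor gene (log2 fold changes 0.50, SE 0.13, and -1.57, SE 0.38). The higher Klrb1c call ended without Flcn KO replicate 2 or 4 or WT replicate 1, 2 or 3, and the lower one by limma-voom and without Flcn KO replicate 2 or 4 or WT replicate 2. The sums of the Treg, the myeloid and the CD8 T and NK cell lists overlapped between the genotypes, and their part in the results below was not tested.

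The promoter of Bhlhe41 is shown because the RefSeq promoter table holds an entry for Bhlhe41 and none for Bhlhe40, whose promoter sequence was therefore not examined. The Bhlhe41 promoter carries the E-box letters that its own product and the folliculin-controlled factors read. The RefSeq sequence (GRCm38.p6, chr6:145865371-145865670, minus strand) holds 250 bases before and 50 after the start site at 145865420, with CACGTG in capitals.

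Bhlhe41 promoter: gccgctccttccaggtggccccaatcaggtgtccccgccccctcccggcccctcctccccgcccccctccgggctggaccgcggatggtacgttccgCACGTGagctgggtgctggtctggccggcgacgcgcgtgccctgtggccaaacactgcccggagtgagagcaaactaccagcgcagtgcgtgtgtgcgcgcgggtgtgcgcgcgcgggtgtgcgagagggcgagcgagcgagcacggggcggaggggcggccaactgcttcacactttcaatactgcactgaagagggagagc

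The capitals begin 153 bases before the start site. CACGTG reads the same on both strands and was found in 7.15% of 32851 promoters of this length. The longer form TCACGTGA, which contains it and resembles the lysosomal gene element of TFEB, was not in this window and was found in 0.974% of promoters. The variant CACGCG, searched on both strands, occurred once here and in 9.27% of promoters, and neither the AP-1 form TGANTCA (7.81%) nor the forkhead form TGTTTAC (3.65%) was in the window. G and C made up 70.7% of this window, beside a median of 52.7% over all promoters, and the percentages above are not adjusted for this. No peak of the deposited table overlapped these 300 bases, and the nearest lay 428 bp away.

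At Bhlhe40, the chromatin at the lower-coordinate end of the gene was about 2-fold more open in Flcn KO than in WT, and another peak farther away was also higher. All 10 Bhlhe40 peaks passed the low-count filter. Of these, 3 were called higher in Flcn KO, 0 were called lower and 7 were not called, beside 1.35% called higher over all tested peaks. The libraries of the groups did not overlap at 2 of the 10, both with Flcn KO above WT, as at 4.03% of all tested peaks. These are the values that drew attention to the gene, and nothing further is read from the counts. Peaks within 1000 bp of a gene end (promoter peaks where the strand is not given, as for Bhlhe40) are described first, and the others, called flanking, after them.

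The most accessible Bhlhe40 peak, at 108660123 to 108660826, overlaps the lower-coordinate end of the gene. It had 179, 187, 225 and 205 CPM in Flcn KO replicates 1 to 4 and 88.6, 88.3, 73.4 and 75.5 CPM in WT replicates 1 to 4. Every Flcn KO library was more than 2-fold above the highest WT library. The means were 199 ± 20.2 CPM in Flcn KO and 81.5 ± 8.13 CPM in WT (SD, n = 4 each), a log2 fold change of 1.28 (SE 0.10). Already in WT this peak stood at the 95th percentile of all tested peaks by CPM, and at the 86th percentile of the 11732 tested peaks within 1000 bp of a gene end. Over those gene-end peaks, 36 were called higher in Flcn KO (0.307%) and 37 lower (0.315%).

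A second peak, at 108659187 to 108659822, lies 807 bp outside the gene and 300 bp from the first. It had 78.6, 89.5, 81.8 and 89.9 CPM in Flcn KO and 44.6, 45.1, 41.3 and 39.9 CPM in WT. The groups again did not overlap, and the spread within each was small, with means of 85.0 ± 5.65 CPM in Flcn KO and 42.7 ± 2.54 CPM in WT (log2 fold change 0.99, SE 0.11). Given this gap, both peaks may be parts of 1 accessible element, so they are not counted as independent sites.

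The third promoter peak, at 108661531 to 108661859 inside the gene, lies only 704 bp beyond the first. It had 37.7, 38.2, 31.3 and 34.3 CPM in Flcn KO and 38.2, 32.1, 36.7 and 40.8 CPM in WT. The libraries of both groups were interleaved, and the log2 fold change was -0.06 (SE 0.14). Per length, the inner peak had 108 CPM per kb in Flcn KO and the peak at the gene end 283 CPM per kb. In WT both were nearly equally open, at 112 CPM per kb for the inner peak and 116 CPM per kb for the peak at the gene end.

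**Figure D1:**
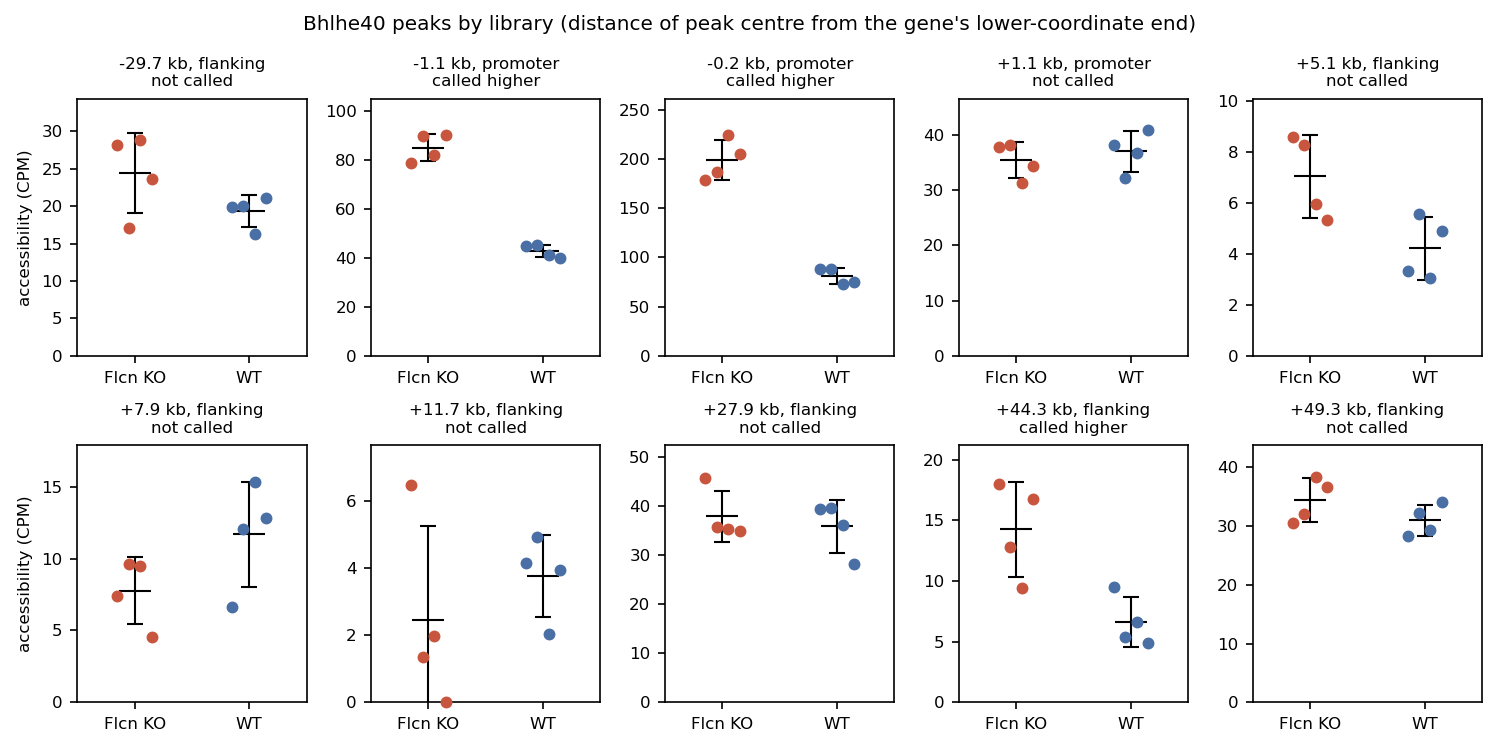
Accessibility (CPM, each axis from 0) in each library at the 10 Bhlhe40 peaks, titled by the distance of the peak centre from the lower-coordinate end of the gene; points are libraries, horizontal marks are means and bars are SD (n = 4 each). Flcn KO and WT points are fully apart only at the promoter peaks with means of 85.0 and 199 CPM in Flcn KO, and they intermingle at the promoter peak inside the gene.

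The 7 flanking Bhlhe40 peaks were less open than the peak at the gene end, with WT means of 3.76 to 35.9 CPM. One of them, at 108704744 to 108705171, 37.8 kb beyond the higher-coordinate end of the gene, was called higher. It had 18.0, 12.8, 9.45 and 16.8 CPM in Flcn KO and 9.55, 5.35, 6.63 and 4.92 CPM in WT. The lowest Flcn KO library (replicate 3) lay just under the highest WT library (replicate 1), so the groups touched. The means were 14.3 ± 3.89 CPM in Flcn KO and 6.61 ± 2.09 CPM in WT (log2 fold change 1.09, SE 0.27). This call was lost when Flcn KO replicate 1, Flcn KO replicate 4, WT replicate 2 or WT replicate 4 was left out, with the log2 fold change between 0.94 and 1.34 over all omissions of 1 library.

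The peak 4332 bp farther out, at 108709504 to 108710329, was the widest of the locus (826 bp) and had more CPM in both genotypes. It had 30.5, 32.1, 38.3 and 36.6 CPM in Flcn KO and 28.2, 32.1, 29.3 and 33.9 CPM in WT, a log2 fold change of 0.15 (SE 0.15). The groups overlapped there. A peak at 108688323, 21.4 kb from the gene, had 38.0 ± 5.19 CPM in Flcn KO and 35.9 ± 5.32 CPM in WT (0.09, SE 0.15). On the other side of the gene, the peak at 108630708, 29.5 kb away, had 28.2, 17.1, 28.8 and 23.6 CPM in Flcn KO and 19.9, 20.1, 16.3 and 21.2 CPM in WT (0.34, SE 0.19). Here 3 of the 4 Flcn KO libraries were above every WT library and Flcn KO replicate 2 was not.

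Nearer the higher-coordinate end of the gene the direction was mixed, and none of the 3 peaks there was called. The peak at 108665650, inside the gene and 1117 bp from that end, had 8.60, 8.28, 5.97 and 5.33 CPM in Flcn KO and 3.32, 5.58, 3.06 and 4.92 CPM in WT (log2 fold change 0.75, SE 0.33). The peak at 108668270, 1345 bp outside, had 7.43, 9.62, 9.45 and 4.57 CPM in Flcn KO and 6.64, 12.0, 15.3 and 12.8 CPM in WT (-0.56, SE 0.28). In both, libraries of the groups overlapped. At 108672185, 5.26 kb outside, the counts were 33, 5, 8 and 0 in Flcn KO and 20, 22, 8 and 16 in WT, so the Flcn KO mean rested on replicate 1. The log2 fold change of -0.49 (SE 0.54) moved to -1.62 without that library.

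Just inside the 50 kb limit stood the peak 42.6 kb away described above (0.15), and just outside it a peak at 108717427, 50502 bp away, with 5.87, 3.21, 7.96 and 9.91 CPM in Flcn KO and 3.32, 4.02, 5.10 and 4.92 CPM in WT (log2 fold change 0.61, SE 0.35).

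Summed over its 10 peaks, the Bhlhe40 locus had 440, 432, 467 and 451 CPM in Flcn KO and 283, 285, 260 and 266 CPM in WT. The lowest Flcn KO sum was well above the highest WT sum, and the means were 448 ± 15.1 CPM in Flcn KO and 274 ± 12.3 CPM in WT (SD, n = 4 each), a ratio of 1.64. Of the mean difference of 174 CPM, 160 CPM (91.8%) came from the 2 called promoter peaks. Those 2 peaks held 63.4 ± 3.32% of the locus in Flcn KO and 45.3 ± 1.90% in WT. They were picked because they were called higher, so a large part in the difference was favoured by the choice. All 3 promoter peaks, called or not, had 319 ± 18.5 CPM in Flcn KO and 161 ± 9.01 CPM in WT. That was 71.3 ± 2.84% of the locus in Flcn KO and 58.9 ± 1.21% in WT. The 7 flanking peaks together had 128 ± 12.2 CPM in Flcn KO and 112 ± 4.97 CPM in WT, and these sums overlapped between the groups.

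**Figure D2:**
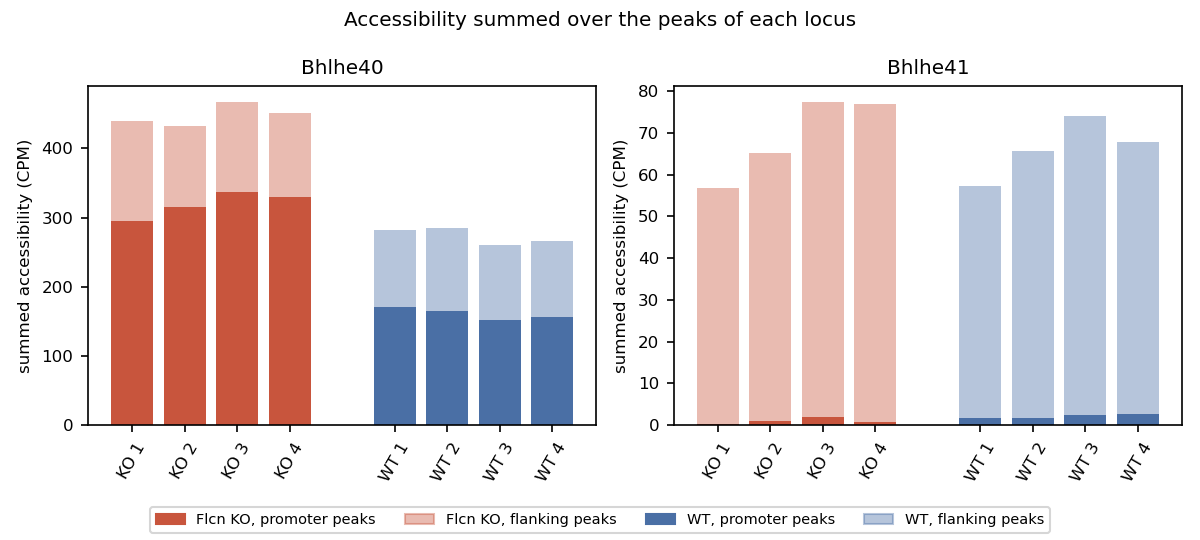
Accessibility (CPM) summed over the promoter peaks (dark) and flanking peaks (light) of Bhlhe40 and Bhlhe41 in each library, with separate vertical scales for the genes. The Bhlhe40 bars are 432 to 467 CPM in Flcn KO and 260 to 285 CPM in WT, and the Bhlhe41 bars overlap between the groups.

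The Bhlhe41 locus was far less open at its start site, and none of its peaks was called. Of its 6 peaks, 3 passed the low-count filter, and of these 0 were called higher, 0 lower and 3 not called. Over all tested peaks 1.35% were called higher and 1.02% lower, so nothing is read from this count. Its summed accessibility was 56.7, 65.2, 77.3 and 77.0 CPM in Flcn KO and 57.3, 65.6, 73.9 and 67.9 CPM in WT. The groups overlapped, with means of 69.0 ± 9.97 CPM in Flcn KO and 66.2 ± 6.89 CPM in WT (SD, n = 4 each), a log2 ratio of 0.06. How far this differs from the log2 ratio of 0.71 at Bhlhe40 was not tested, since Bhlhe40 was chosen for its change.

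The only Bhlhe41 peak within 1000 bp of the start site, at 145866098 to 145866297, held 2, 4, 8 and 2 counts in Flcn KO and 8, 8, 10 and 11 counts in WT. At 0.391, 1.07, 1.99 and 0.762 CPM in Flcn KO and 1.66, 1.78, 2.55 and 2.71 CPM in WT, it was below the filter and was not tested. In WT its 10.9 CPM per kb compares with 116 CPM per kb at the Bhlhe40 gene end. The adjacent peak at 145866697 held 0 to 12 counts per library and had 1.53 ± 0.867 CPM in Flcn KO and 1.62 ± 1.26 CPM in WT. Neither peak was called with no low-count filter, and whether the few counts hide a difference was not tested. The peak within 1000 bp of the start site had 1.05 ± 0.683 CPM in Flcn KO and 2.18 ± 0.529 CPM in WT. That is a log2 ratio of -1.05, and Flcn KO replicate 3 lay within the WT range.

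Most of the Bhlhe41 signal came from a single peak at 145855699 to 145856151, 2092 bp beyond the other end of the gene. It had 35.6, 43.3, 48.2 and 49.5 CPM in Flcn KO and 32.4, 36.1, 50.5 and 43.5 CPM in WT (log2 fold change 0.12, SE 0.15). The libraries were interleaved. On the start-site side, the peak at 145883024, 17.6 kb away, had 7.43, 9.08, 7.96 and 8.38 CPM in Flcn KO and 7.47, 8.03, 4.59 and 4.92 CPM in WT (0.38, SE 0.29), with overlapping groups. A peak 290 bp from it, at 145883692, was below the filter, with 4 to 14 counts in Flcn KO and 4 to 24 in WT. The peak at 145894553, 29.1 kb away, had 8.99, 9.08, 14.9 and 16.0 CPM in Flcn KO and 11.6, 11.6, 12.7 and 14.3 CPM in WT (-0.06, SE 0.24). Flcn KO libraries lay on both sides of the WT libraries there.

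**Figure D3:**
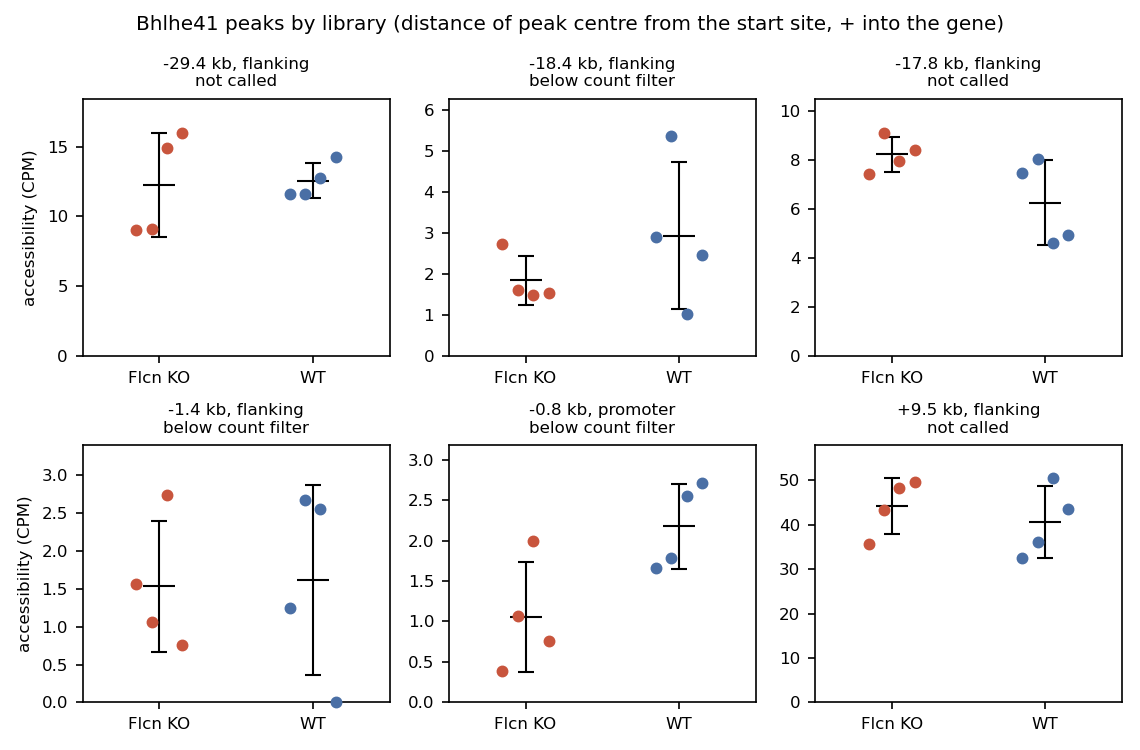
Accessibility (CPM, each axis from 0) in each library at the 6 Bhlhe41 peaks, titled by the distance of the peak centre from the start site; points are libraries, horizontal marks are means and bars are SD (n = 4 each). Flcn KO and WT points overlap at all 6 peaks, and the peaks nearest the start site stay below 3 CPM.

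Around the loci, the nearest protein-coding genes were examined to see whether neighbouring chromatin differed too. On the lower-coordinate side of Bhlhe40 they were Itpr1 (110 kb away) and Sumf1 (475 kb). On its higher-coordinate side they were Arl8b (116 kb) and Edem1 (157 kb). Around Bhlhe41 they were Rassf8 (37.2 kb), Tuba3b (237 kb), Sspn (66.5 kb) and Itpr2 (243 kb), so several of these genes are not close. Of their 92 tested peaks, 5 were called higher, 0 lower and 87 not called, beside 1.35% higher and 1.02% lower over all tested peaks. Their median log2 fold change was -0.02, beside 0.00 over all tested peaks. Inside Itpr1, which encodes an inositol trisphosphate receptor that releases calcium from the endoplasmic reticulum, a peak at 108528050 had 10.2, 9.08, 9.45 and 9.14 CPM in Flcn KO and 1.87, 3.57, 2.04 and 2.95 CPM in WT. The groups were fully apart (log2 fold change 1.85, SE 0.33), and the edgeR adjusted p was 0.000663. A second Itpr1 peak, at 108543917, had 3.96 ± 0.547 CPM in Flcn KO and 1.05 ± 0.442 CPM in WT (1.88, SE 0.53, edgeR adjusted p = 0.0469), and its call held under 3 of the 14 alternatives only, ending when any 1 library was left out, by limma-voom, with the replicate block and with no low-count filter (adjusted p 0.0366 to 0.189 over the alternatives).

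Inside Arl8b, which encodes a small GTPase that moves lysosomes along microtubules, a peak at 108793087 held 28, 24, 38 and 16 counts in Flcn KO and 8, 4, 12 and 4 in WT. The groups did not overlap (log2 fold change 2.05, SE 0.43), and the edgeR adjusted p was 0.00349. Inside Itpr2, another inositol trisphosphate receptor gene, a peak at 146271122 had 69.6, 83.4, 114 and 107 CPM in Flcn KO and 53.6, 45.5, 56.1 and 49.2 CPM in WT (0.86, SE 0.13, edgeR adjusted p = 6.32e-05). Another Itpr2 peak, at 146434189, changed by 0.81 (SE 0.23, edgeR adjusted p = 0.0433), with the call lost by limma-voom and without any single library other than Flcn KO replicate 1 (adjusted p 0.0160 to 0.200 over the alternatives). Between the Itpr1 peaks and the Bhlhe40 gene end, and between Bhlhe40 and the Arl8b peak, lay peaks that were not called, as the plot of changes by distance shows. The called flanking peak at 108704744 also lies between Bhlhe40 and the Arl8b peak.

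**Figure D4:**
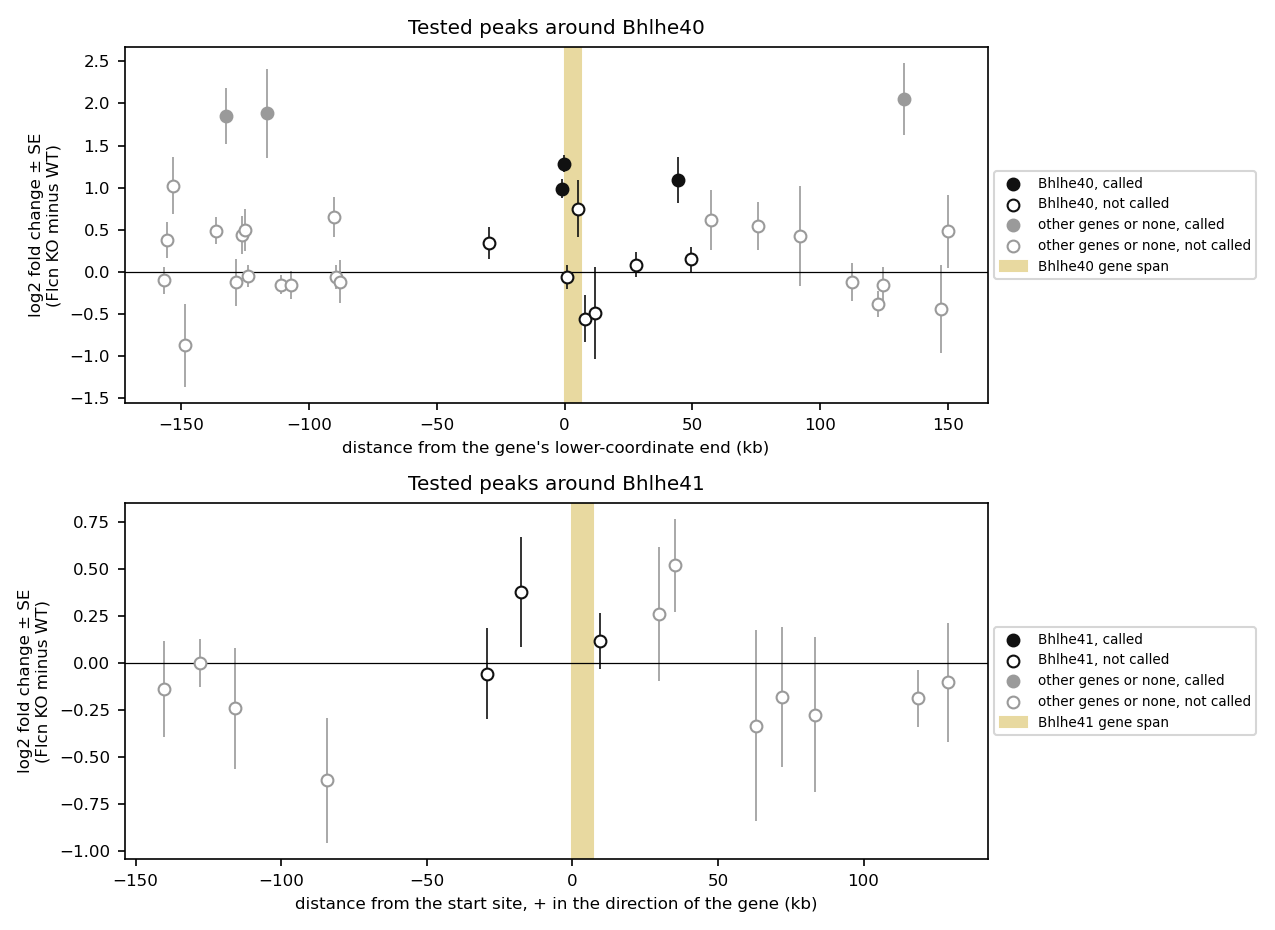
Log2 fold change (Flcn KO minus WT) with its SE at every tested peak within 160 kb of Bhlhe40 (top, distance from the lower-coordinate end) and Bhlhe41 (bottom, distance from the start site); filled points are called, black points are members and grey points belong to other genes or to none. Around Bhlhe40 the adjacent called promoter peaks stand apart from the other called peaks, with uncalled ones between, and around Bhlhe41 no peak in this window is called.

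Genes tied to BHLHE40 or BHLHE41 in T cells gave 3 of 83 tested peaks higher, 1 lower and 79 not called. Over all tested peaks, 1.35% were called higher and 1.02% lower. The median log2 fold change of these T cell genes was 0.10, beside 0.00 over all tested peaks. The lower peak lies 16.1 kb from Il10, the interleukin-10 gene that BHLHE40 represses in mouse T cells, and had 3.91, 1.60, 0.994 and 2.67 CPM in Flcn KO and 11.8, 9.59, 5.10 and 6.89 CPM in WT (log2 fold change -1.83, SE 0.39, edgeR adjusted p = 0.00459). Its groups did not overlap. The other tested Il10 peaks were not called and changed in both directions, with log2 fold changes from -1.83 to 0.77. A peak 16.5 kb from Il2ra, which encodes the high-affinity interleukin-2 receptor chain, had 20.7, 11.2, 16.4 and 16.0 CPM in Flcn KO and 7.89, 6.25, 10.2 and 8.36 CPM in WT (0.99, SE 0.24, edgeR adjusted p = 0.0180). That call ended without Flcn KO replicate 1 or 3 or WT replicate 1 or 2 (adjusted p 0.0115 to 0.100 over the alternatives). Inside Runx1, a transcription factor gene, a peak at 92792953 of chromosome 16 had 5.01 ± 0.994 CPM in Flcn KO and 1.47 ± 0.689 CPM in WT (1.73, SE 0.47, edgeR adjusted p = 0.0362), while near Ifng, the interferon-gamma gene, a peak at a distance of 15.4 kb rose by 0.60 (SE 0.17, edgeR adjusted p = 0.0424). Both calls ended without Flcn KO replicate 2, 3 or 4 or WT replicate 2, 3 or 4, and the Runx1 call also by limma-voom (adjusted p up to 0.150 for Runx1 and 0.188 for Ifng).

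Among 20 circadian clock genes, whose activators BHLHE40 and BHLHE41 oppose, 1 of 86 tested peaks was called higher, 1 lower and 84 were not called. Over all tested peaks, 1.35% were called higher and 1.02% lower. The median log2 fold change of the clock peaks was -0.01. The higher peak lies 16.7 kb from Nr1d2, which encodes the clock repressor REV-ERB beta, and had 26.6, 38.5, 27.8 and 45.7 CPM in Flcn KO and 14.9, 14.3, 18.4 and 22.4 CPM in WT. The groups did not overlap (0.97, SE 0.19, edgeR adjusted p = 0.00186). The lower peak lies 15.7 kb from Nfil3, a basic leucine zipper repressor gene, and had 5.54 ± 1.65 CPM in Flcn KO and 11.2 ± 0.819 CPM in WT (-1.01, SE 0.28, edgeR adjusted p = 0.0422). The Nfil3 call ended by limma-voom and without Flcn KO replicate 3 or 4 or any 1 WT library (adjusted p 0.0369 to 0.170 over the alternatives). Among the 10 Hes and Hey genes, which encode the other repressors of this helix-loop-helix class, 0 of 17 tested peaks were called by edgeR, and 0 at an unadjusted p below 0.05. Neither DESeq2 nor limma-voom called one (0 each). The most accessible peaks of these genes differed most at Hes7, with 2.17 ± 1.07 CPM in Flcn KO and 3.56 ± 0.776 CPM in WT (-0.66, SE 0.47, edgeR adjusted p = 0.619).

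**Figure D5:**
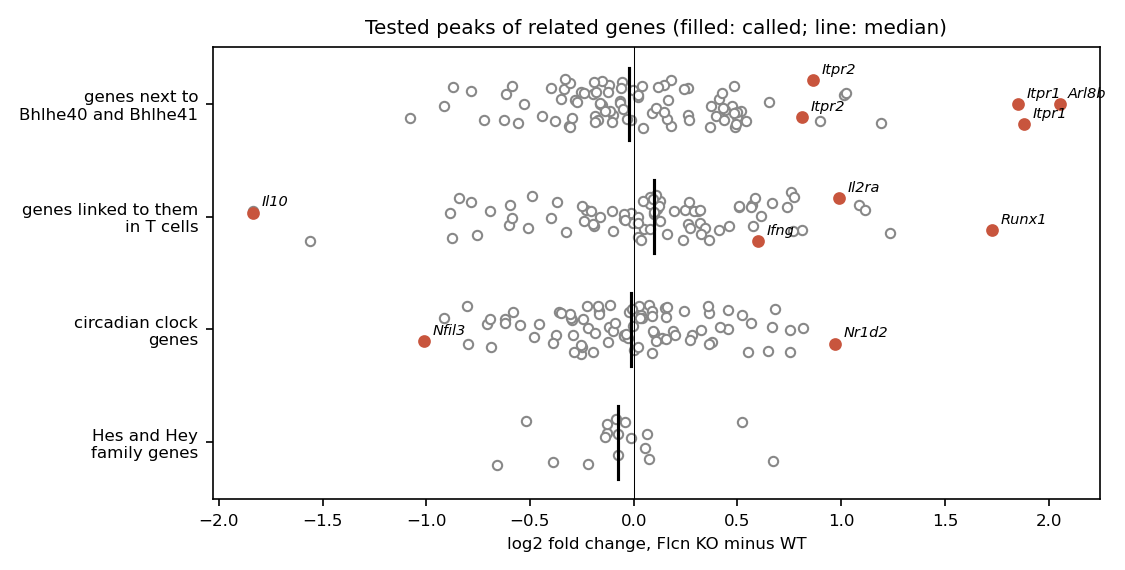
Log2 fold change (Flcn KO minus WT) of each tested peak assigned to the genes next to Bhlhe40 and Bhlhe41, to genes linked to them in T cells, to circadian clock genes and to Hes and Hey genes; filled points are called and named, and vertical lines are medians. All 4 medians lie between -0.08 and 0.10, with called peaks on both sides of 0 for the T cell and clock genes.

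Peaks of other genes whose profile over the 8 libraries was most like that of the Bhlhe40 gene-end peak were ranked by Pearson's r of log2 CPM, among 22005 peaks at or above the median level. The highest were peaks of 4932438H23Rik (r = 0.984), the apoptosis gene Pmaip1 (0.978), the receptor gene Gpr174 (0.977), the sorting nexin gene Snx5 (0.977) and the collagen gene Col27a1 (0.973). All 5 had Flcn KO libraries above WT libraries, as the Bhlhe40 peak did, so these values mainly restate the separation of the genotypes. The likeness does not reflect size, since the log2 fold changes ran from 0.63 at Gpr174 to 3.47 at Col27a1, and the Gpr174 peak was not called (edgeR adjusted p = 0.144). The same ranking for the Bhlhe41 promoter peak gave Nsg2, A530021J07Rik, Atp8b4, Tmco6 and 4930486L24Rik (r = 0.994 to 0.953), and rests on the 2 to 11 counts per library of that peak.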

How the data were processed

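The authors deposited raw counts per peak and library over 57199 shared peaks in mm10. The submitters' processing notes name MACS2 2.1.1, bedtools 2.25.0, BWA 0.7.16, Trimmomatic 0.36, SAMtools 1.9 and Picard 2.9.4. What each tool did, the handling of duplicates, any transposase shift and pooling for peak calling were not stated there. Between 88.7% and 92.7% of a library's values were even, as when both ends of a pair are counted, so errors rest on the spread between libraries. Starts count from 0 in the table and were converted to count from 1.

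Peaks were kept by filterByExpr (minimum count 10) and compared, Flcn KO minus WT, with TMM scaling and edgeR's quasi-likelihood test (edgeR 4.0.16, R 4.3.3; genotype the only term) on the whole table, adjusted by Benjamini-Hochberg. The procedure was tested on simulated data. The SE is the size of the log2 fold change divided by the square root of its F. Peaks were assigned to the nearest of 21887 protein-coding RefSeq genes (GRCm38.p6, the assembly behind mm10) within 50 kb; a peak near a gene need not act on it. A promoter peak lies within 1000 bp of the start site where the RefSeq promoter table gives it (Bhlhe41), otherwise of either gene end (Bhlhe40). The gene table holds no exons.

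The members and gene lists were chosen with earlier results of these data known. The result of 1 marker list is not reported here. All member peaks are named, and for other lists every called gene, or otherwise the gene whose most accessible peak changed most. Likeness used log2(CPM + 0.5). Alternatives were DESeq2 size factors, library size alone, no filter, a minimum count of 30, limma-voom (limma 3.58.1), DESeq2's own Wald test (DESeq2 1.42.0), a replicate block, assignment within 20 kb, sums over only the peaks that passed the filter, and leaving out each library.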

Additional observations from a re-analysis of the deposited data

Results flagged for a closer look

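Within groups of 4 libraries, each member peak was examined for a library standing far from the other 3, and 2 of the 32 groups held one, where chance gives about 1 in 20. At the Bhlhe40 peak at 108688323, Flcn KO replicate 1 had 45.8 CPM and the other Flcn KO libraries 35.1 to 35.8 CPM. At the Bhlhe41 peak at 145883692, Flcn KO replicate 1 had 2.74 CPM and the other Flcn KO libraries 1.49 to 1.60 CPM, all from 14 counts or fewer. Neither peak was called.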

How the results depend on the processing

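The called promoter peaks of Bhlhe40 were called under all 15 refits, with log2 fold changes of 1.22 to 1.33 at 108660123 and 0.95 to 1.03 at 108659187. The loci were chosen for this difference in these same libraries, so the refits show dependence on processing only and add no support. The number of Bhlhe40 peaks called was 2 or 3 throughout, and 2 with assignment within 20 kb, which leaves out the peak at 108704744. No Bhlhe41 peak (0) was called under any alternative. The summed Bhlhe40 log2 ratio was 0.69 to 0.73 with 1 library left out and 0.90 with assignment within 20 kb, where fewer flanking peaks enter; that of Bhlhe41 was -0.00 to 0.14. Over the table, calls came to 665 (without WT replicate 2) to 1797 (without Flcn KO replicate 1). Refits of the called Treg, CD8 T and NK marker peaks were chosen after seeing the data and kept every direction. With 1 library left out, called peaks numbered 1 to 3 for clock genes, 1 to 7 for the T cell genes and 3 to 6 for the neighbouring genes. By limma-voom they were 1 for clock genes and 3 for neighbouring genes, and with a minimum count of 30 they were 2 for the T cell genes and 3 for neighbouring genes. The called peaks of Il10, Runx1 and Arl8b and the Itpr1 peak at 108543917 fell below that stricter filter and were not tested under it. Replicate numbers are shared between the genotypes, but same-numbered libraries did not deviate together (r = -0.05 to 0.08), and the best partner of each Flcn KO library was its own number for 1 of 4. With the replicate block, 1375 peaks were called over the table and 3 at Bhlhe40. Few counts limit the precision at the 3 untested Bhlhe41 peaks, which held 0 to 24 counts per library and were not called with no low-count filter either. The labels do not say that replicates are separate animals beyond calling them biological, so p-values measure the spread between these libraries.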
